A study of Rattus norvegicus with 4 samples.

Results

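The comparison set brain tissue from the side of an intracerebral hemorrhage (ipsilateral) against tissue from the opposite side (contralateral) in rats aged 13 months. It was read across those genes of the deposited table whose RPKM averaged 1 or more over the 4 libraries. RPKM is a read number corrected for gene length and for the reads mapped in that library. These were 12160 of 17853 genes. Each gene was given as log2((ipsilateral RPKM + 1) / (contralateral RPKM + 1)), called the log2 ratio below, so a value of 1 is a 2-fold difference on that scale and low genes are understated. Each side was 1 library of polyadenylated RNA, made from RNA pooled over several rats, and the table holds a matching pair of libraries from rats aged 21 months. All 4 groups had a hemorrhage, so the opposite side is brain of an injured animal and there was no uninjured group. Strain, sex, how the bleeding was produced, which region was dissected and when it was taken are not given in the labels. With 1 library a side there is no replicate check, no error and no test: every value below describes these libraries.

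Blood that escapes into the brain brings red cells, plasma proteins and heme with it. Microglia, the resident phagocytes of the brain, and monocytes that enter from the blood clear cells and debris, and hemoglobin is broken down through heme oxygenase to iron, which ferritin stores. Astrocytes around such an injury raise intermediate filaments and acute-phase genes, a state called reactive. In bulk tissue, fewer cells of a type and less RNA per cell cannot be told apart, and more of one RNA lowers the share left for all others.

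The tissue carried the RNAs of brain on both sides. Snap25, a synaptic vesicle fusion protein, was listed at 298 RPKM ipsilaterally and 460 contralaterally, Mbp of myelin at 697 and 966, and Gfap of astrocytes at 1151 and 443. RPKM summed to between 388632 and 402100 in the 4 libraries, and mitochondrially encoded genes took 18.5% of the ipsilateral and 23.3% of the contralateral sum at 13 months. The table gives no read counts, so depth is unknown, and single low values carry the most uncertainty. Genes with near-identical copies elsewhere in the genome are uncertain too: Gapdh, a glycolytic enzyme gene active in all cells, was listed at only 1.25 and 0.71 RPKM, Rps18 of the ribosome at 1.65 and 1.76, and Ftl1 of ferritin at 6.2 and 1.37. The contralateral library at 13 months stood apart in some members of a list of pineal gland and photoreceptor genes, which are given with the lower genes below.

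Of the 12160 genes, 874 (7.19%) had a log2 ratio of at least 1 and 8 (0.0658%) of at most -1. At the smaller size of 0.5, 1852 (15.2%) were higher and 497 (4.09%) lower. The middle of the distribution lay near 0, with a median of 0.01 and quartiles of -0.20 and 0.27. The upper tail was long: 250 genes reached 2, 53 reached 3, 10 reached 4 and 2 reached 5, against 3 genes at or below -2. The 874 higher genes took 9.10% of the ipsilateral RPKM sum and 2.67% of the contralateral one. They were mostly low on the opposite side, where 226 were under 1 RPKM, 498 between 1 and 10, 137 between 10 and 100, and 13 at 100 or more. Because a gene could pass the filter through its ipsilateral value, 72 of the 874 had a mean under 1 RPKM over the other 3 libraries. Among the 501 genes at 100 RPKM or more contralaterally, 2.59% were higher by at least 1 and 10.8% were lower by at least 0.5. Among the 5358 genes at 10 RPKM or more contralaterally, 150 were higher by at least 1 and 4 lower by as much. Counts and medians of the gene lists below cover the members that passed the filter, are descriptions only, and stand beside 7.19% higher genes and a median of 0.01 over all genes.

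**Figure D1:**
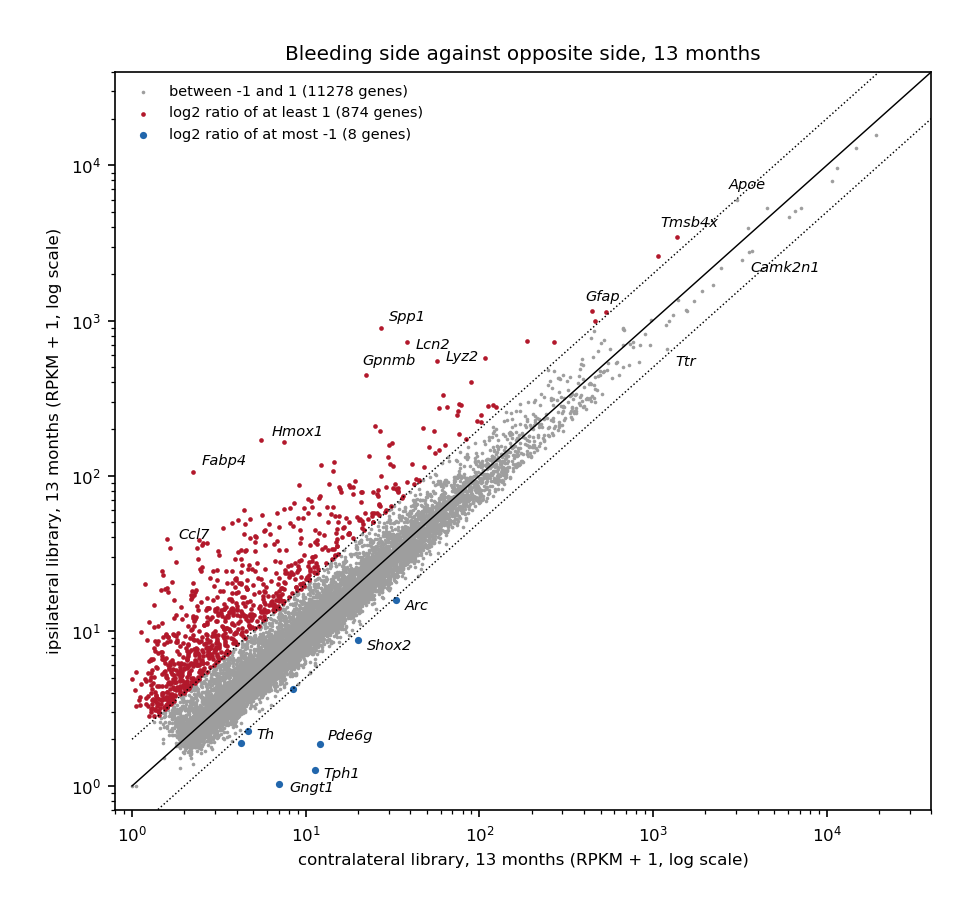
Each point is 1 of 12160 genes, with contralateral RPKM + 1 on the horizontal and ipsilateral RPKM + 1 on the vertical axis, both on log scales. The solid line marks equal values and the dotted lines a log2 ratio of 1 and -1. The 874 red genes lie above the upper dotted line and the 8 blue genes below the lower one.

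Short upstream sequences are shown first, because some letters were more frequent there in certain gene lists, and among the higher genes, than among all genes kept. Shares for a list cover all its kept members with a promoter, higher or not. Promoter windows of 250 bases before to 50 bases after the gene start came from RefSeq on the rat assembly GRCr8, and 8981 of 12136 distinct symbols had one. The motifs were searched on both strands, each counted on its own even where it overlapped another. A match is a description of letters, not evidence that a factor binds. The element to which interferon-activated factors bind, searched as GAAA, any 2 bases and GAAA again, was in 3.77% of all 27457 promoters, in 2.90% of the promoters of genes kept, in 8.96% of the 647 with a log2 ratio of at least 1, and in 19 of 30 promoters of the interferon list (63.3%). The letters TTTNGCGC of E2F, the factor family of cell cycle genes, were in 1.37% of all promoters and 2.13% of those kept. They were in 2.94% of the higher genes and in 11 of 43 cell cycle promoters (25.6%). For GGG, any 2 bases and TTTCC, a form of the NF-kB site, the share was 1.51% of all, 1.70% of those kept and 4.48% of the higher genes. Among list promoters these letters were in 4 of 18 of chemokines (22.2%) and 0 of 16 of phagocyte receptors. Stretches of 30 bases around the first match follow, 5′ to 3′ on the strand of the gene, with the letters of that match in capitals. They are given for some genes of each list that are higher and hold a match.
Gbp2: agttttttagTTTCACTTTCattgtcttaa
Ifit3: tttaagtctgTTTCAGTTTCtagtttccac
Oasl2: aaagctttggTTTCAGTTTCcaggcttgag
Parp14: tccaggaaatGAAAGTGAAAgaagtaagtt
Irf7: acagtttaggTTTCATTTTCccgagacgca
Cxcl2: cctaagctcaGGGGATTTCCctgatccctg
Cxcl1: ccggttgtggGGAAACACCCtgtgctccgg
Ccl20: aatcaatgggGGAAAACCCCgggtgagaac
Cdk1: tttccgctcccTTTCGCGCtctgcactccc
Mcm3: acttgggaagtTTTCGCGCcagggaggagt
Mcm6: tggcgtctgctTTTGGCGCgaaattagcgt
Mcm5: tagctcagaagTTTCGCGCcaaaacgtccc

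The first 5 of these belong to interferon genes, the next 3 to chemokines and the last 4 to genes of DNA replication and the cell cycle. On GRCr8 the Gbp2 stretch is chr2:234005686-234005715 (+ strand), its match starting 31 bases before the gene start. That of Ifit3 is chr1:241527272-241527301 (+ strand), 44 bases before, and that of Irf7 is chr1:205800073-205800102 (- strand), 69 bases before. For Mcm3, chr9:30733715-30733744 (- strand), the match lies 13 bases after the start, in the transcribed part. The Mcm6 and Mcm5 stretches each hold a further match, read on the other strand. It overlaps the first and is only partly in capitals.

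Among the highest genes, 3 upstream windows are printed whole from 250 bases before the start to the start, with matches to the interferon, NF-kB, PU.1 and AP-1 letters in capitals. They are Cxcl2 (ENSRNOG00000002792), a chemokine that draws neutrophils, at chr14:17467256-17467505 (- strand), Cybb (ENSRNOG00000003622), the catalytic subunit of the phagocyte oxidase, at chrX:16065066-16065315 (- strand), and Gpnmb (ENSRNOG00000008816), a membrane glycoprotein of phagocytes, at chr4:79340878-79341127 (+ strand).
Cxcl2: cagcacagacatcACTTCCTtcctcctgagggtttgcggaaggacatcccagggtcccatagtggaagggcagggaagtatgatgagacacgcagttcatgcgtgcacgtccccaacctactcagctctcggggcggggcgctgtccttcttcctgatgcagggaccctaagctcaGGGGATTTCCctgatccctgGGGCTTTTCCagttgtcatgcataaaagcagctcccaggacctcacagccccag
Cybb: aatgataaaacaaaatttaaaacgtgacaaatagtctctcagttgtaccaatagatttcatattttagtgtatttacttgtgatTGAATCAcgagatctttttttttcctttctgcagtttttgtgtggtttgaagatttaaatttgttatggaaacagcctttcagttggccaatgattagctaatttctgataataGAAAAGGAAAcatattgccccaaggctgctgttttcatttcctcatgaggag
Gpnmb: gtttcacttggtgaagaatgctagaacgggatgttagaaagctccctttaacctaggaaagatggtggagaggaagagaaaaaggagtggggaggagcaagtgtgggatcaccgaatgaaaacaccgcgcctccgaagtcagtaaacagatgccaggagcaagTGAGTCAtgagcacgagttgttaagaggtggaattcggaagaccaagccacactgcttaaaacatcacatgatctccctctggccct

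The Cxcl2 window holds 2 NF-kB matches, starting 74 and 54 bases before the start, and a match to AGGAAGT, a site of the myeloid factor PU.1, at 237 bases. Cybb has an AP-1 match (TGANTCA, the site of Fos and Jun proteins) at 166 bases and the interferon letters at 52 bases. Gpnmb has an AP-1 match at 87 bases. The PU.1 letters were in 8.24% of all promoters, 8.0% of those kept, 15.1% of those higher by at least 1 and 23.3% of the 176 higher by at least 2. Those of AP-1 were in 7.33%, 4.77%, 9.89% and 11.4% of the same groups. For the antioxidant response element, searched as TGACNNNGC, the shares were 12.2%, 14.7%, 14.2% and 9.09%, with 9 of 32 in the antioxidant list (28.1%). CCAAT was in 37.7%, 37.1%, 35.7% and 37.5%, with 27 of 43 in the cell cycle list (62.8%). In the phagocyte receptor list, 1 of 16 promoters held the PU.1 letters (6.25%) and 4 of 16 those of AP-1 (25%). In the chemokine list these were 5 of 18 (27.8%) and 2 of 18 (11.1%).

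Leaving out placeholder names, the 12 highest genes were Fabp4, Spp1, Hmox1, Ccl7, Lgals3, Sdc1, Gpnmb, Lcn2, Cxcl2, Ccl2, Slpi and Cd8a. In each of these genes both contralateral libraries lay far under both ipsilateral ones. The lipid chaperone gene Fabp4 had 105 RPKM ipsilaterally and 1.25 contralaterally at 13 months, and 29.1 and 0.62 at 21 months, the one gene of the 12 whose ipsilateral value differed between the ages by more than 3-fold. Sdc1, a heparan sulfate proteoglycan of cell surfaces, had 33.2 and 0.66 RPKM at 13 months and 16.2 and 0.39 at 21 months. Slpi, an inhibitor of neutrophil proteases, had 26.8 and 0.78 RPKM, then 12.6 and 0.36. Cd8a, the co-receptor chain of cytotoxic T cells that rat natural killer cells and some macrophages also carry, had 21.8 and 0.51 RPKM, then 8.32 and 0.25. Cxcl2 and Hmox1 were the genes of the 12 with the higher ipsilateral value at 21 months: Cxcl2 had 18.9 RPKM at 13 and 30.6 at 21 months, and Hmox1 169 and 189. Further down among the 30 highest came Cd300le (3.75), Mcemp1 (3.58) and Mnda (3.45), all of myeloid cells. In RPKM rather than ratio, the largest differences outside the mitochondrial genome were those of Apoe (5996 against 3065), the lipid carrier of glia and macrophages, and the actin-binding peptide gene Tmsb4x (3444 against 1377). In the other direction they were those of Camk2n1 (2461 against 3238), an inhibitor of the neuronal kinase CaMKII, and Ttr (656 against 1200.3). Sparcl1 (1148 against 1564) and Cst3 (1167 against 1543) of astrocytes came next. Then came Calm2 (1548 against 1907), a calmodulin gene, and the calmodulin-binding Pcp4 (537 against 825). Mbp (697 against 966), Calm3 (986 against 1232), Zwint (942 against 1186) and the calmodulin-binding Nrgn (515 against 722) followed. Among genes at 10 RPKM or more contralaterally, the actin regulators Gmfg (107 against 13.3), Hcls1 (86.7 against 12.6) and Arpc1b (133 against 22.1) were among the 15 highest, and Cpne7 (-0.87) and Aldh1a1 (-0.86) among the 15 lowest.

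**Figure D2:**
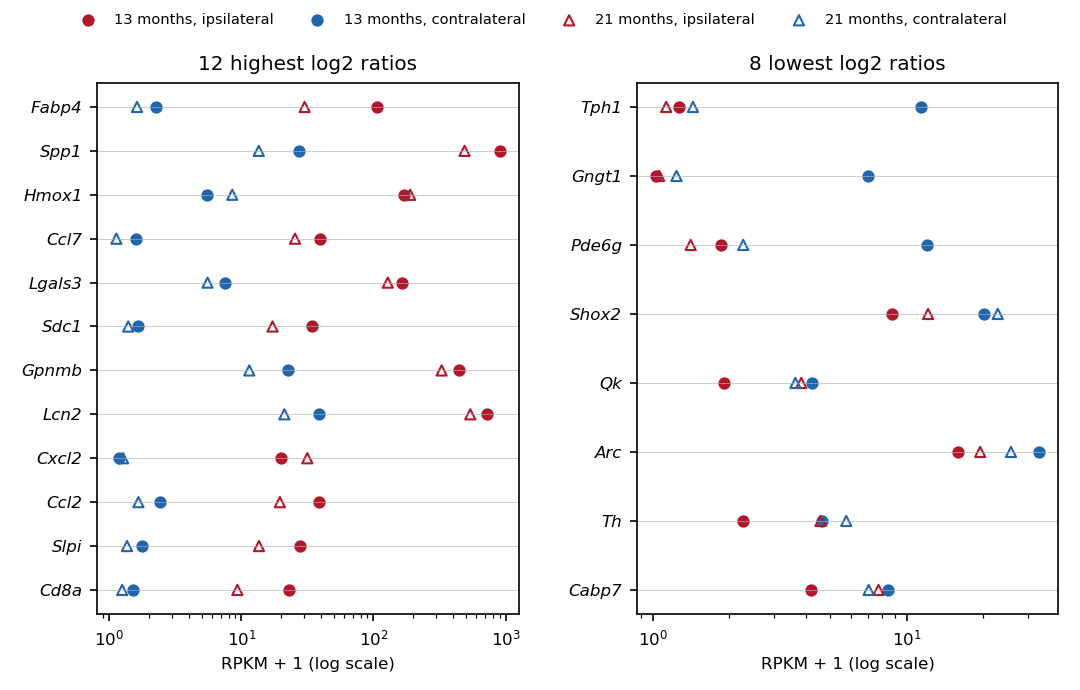
RPKM + 1 (log scale) in the 4 libraries for the 12 genes with the highest (left) and the 8 with the lowest (right) log2 ratio at 13 months, filled circles for 13 and open triangles for 21 months, red for ipsilateral and blue for contralateral. On the left both red symbols of a gene lie above both blue ones. On the right Tph1, Gngt1 and Pde6g stand out in 1 library, the 13 month contralateral one, at 10.4, 6.05 and 11 RPKM.

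Receptors by which phagocytes see debris and antibody were higher as a group, with a median log2 ratio of 2.44 over 26 members and 21 of them at 1 or more. The lectin receptor Clec7a had 34.8 RPKM against 1.52, the inhibitory receptor Lilrb4 33.0 against 1.37, and the endotoxin co-receptor Cd14 27.9 against 1.40. Clec4e, a lectin that senses dead cells, had 13.7 against 0.33. The signalling chains that many of these receptors share were among the most abundant, Fcer1g at 162 against 30.5 RPKM and Tyrobp at 52.2 against 8.68. The receptors for apoptotic cells Axl (0.54) and Mertk (0.51) and the hemoglobin-haptoglobin receptor Cd163 (0.68) lay well below the median of the list, and Sirpa, which neurons also carry, was at 0.15.

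The NADPH oxidase of phagocytes, which makes superoxide, was higher in each of the 7 genes kept, at a median of 2.80. Over all 9 genes measured the median was 2.62. Its membrane subunits Cybb and Cyba had 58.9 against 3.43 and 61.5 against 9.85 RPKM. Of the cytosolic subunits, Ncf1 had 116 against 11.2 and Ncf4 23.7 against 2.09. The small GTPase Rac2 (25.4 against 3.28) and the proton channel Hvcn1 (4.33 against 0.23), which support the burst, were higher as well. No list had a higher median, and its median at 21 months was 2.74.

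Chemokines showed a wide range, from 4.61 for Ccl7 to -0.57 for Cx3cl1, with a median of 2.31 and 18 of 25 at 1 or more. Over all 33 measured the median was 1.58. Of the 25 kept, 4 had a mean under 1 RPKM over the other 3 libraries, so they had to be higher to pass the filter. Pf4, a chemokine of platelets and macrophages, had 48.2 against 2.77. The monocyte chemokines Ccl7 and Ccl2 had 38.2 against 0.60 and 37.5 against 1.43 RPKM. Cxcl13, which guides B cells, was the most abundant at 208 against 24.1 RPKM, and the neutrophil chemokine Cxcl1 had 23.2 against 2.47. Cxcl3 was listed at 3.89 RPKM ipsilaterally and at 0 contralaterally. Of the receptors, Cxcr4 had 24 against 1.47 and Ccr1 3.54 against 0.12. The members made by neurons, astrocytes or vessels in the resting brain did not share the direction: Cx3cl1 was at 63.0 against 94.0 RPKM, Cxcl12 at 5.19 against 7.35 and Cxcl14 at 35.2 against 39.7.

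Interleukins, other cytokines and their receptors had a median of 1.37, with 22 of 32 at 1 or more and Cntfr (-0.27) the one member below 0. Over all 45 measured the median was 1.04, and 2 of the 32 kept had a mean under 1 RPKM over the other 3 libraries. Il1b, a main inflammatory cytokine, had 51.8 against 3.75 RPKM, and Il1rn, which blocks its receptor, 17.8 against 0.59. The decoy receptor Il1r2 had 2.30 against 0.06, whereas the signalling receptor Il1r1 was at 2.15 against 1.11 and its partner Il1rap at 6.29 against 5.48. Receptor chains for colony-stimulating factors were high in ratio: Csf2rb at 2.61, Csf2ra at 2.54 and Csf3r at 2.22. Ligand and receptor genes of transforming growth factor beta were higher, Tgfb1 at 1.73, Tgfbr1 at 1.6 and Tgfbr2 at 1.47. Socs3, a feedback inhibitor of cytokine receptors, had 20.9 against 1.81 RPKM. The shared receptor chain Il6st (0.24) and Lifr (0.03) differed little.

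Toll-like receptor and inflammasome genes had a median of 1.59, with 20 of 25 at 1 or more. Over all 29 measured the median was 1.52, and 3 of the 25 kept had a mean under 1 RPKM over the other 3 libraries. Tlr2, which reads bacterial lipoproteins and tissue damage, had 15.5 against 1.22 RPKM and the endosomal receptors Tlr7 and Tlr8 8.50 against 1.68 and 4.56 against 0.31. The inflammasome parts Pycard (18.2 against 2.91), Casp1 (12.6 against 2.25), Nlrp3 (4.74 against 1.0) and Aim2 (6.50 against 1.52) were each higher by more than 1.5 on the log2 scale, and Gsdmd, whose product forms the pore of pyroptosis, was at 1.39. Inhibitors of NF-kB were higher along with its subunits: Nfkbia at 77.6 against 20.1 RPKM and Tnfaip3 at 7.42 against 1.79, beside Nfkb2 (1.72), Relb (1.33) and Nfkb1 (1.17). Irak3, a brake on the pathway, was at 2.20, and Tlr3 (0.65) and Rel (0.79) were at the low end. Irak1, a kinase of the same pathway, had 33.5 and 33.3 RPKM.

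Complement had 14 of 17 members at 1 or more and a median of 1.42. C3, the central component, had 202 against 46.2 RPKM, and Serping1, the inhibitor of its classical arm, 75.7 against 17.8. The C1q chains C1qa, C1qb and C1qc, made by microglia and macrophages, had 113 against 47.1, 90.2 against 37.4 and 80.3 against 25.2. The receptors for complement fragments C5ar1 (2.49) and C3ar1 (2.24) had the highest ratios. Masp1, a protease of the lectin arm, was the lowest at 6.53 against 7.97. Surface proteins that protect host cells did not differ by much, Cd59 at 86.2 against 84.1 and Cd55 at 1.86 against 1.83 RPKM.

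Coagulation and fibrinolysis, with a median of 0.70, had 7 of 18 members at 1 or more. Plau, the gene of urokinase, had the highest ratio at 7.59 against 0.36 RPKM, and its receptor Plaur had 4.07 against 0.29. Annexin A2 (Anxa2) and its partner S100a10, which hold plasminogen at cell surfaces, had 70.6 against 10.9 and 118 against 29.4. Thbs1, a matrix protein of platelets and macrophages, was at 2.34. Factor 10 (F10), which macrophages can make, had 11.5 against 2.31. The initiator tissue factor (F3) was at 12.7 against 10.7, the other plasminogen activator Plat at 22.7 against 21.3, the thrombin receptor F2r at 4.21 against 4.53 and Serpine2, a protease inhibitor of glia and neurons, at 62.2 against 75.8.

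The interferon response had 35 of 41 members at 1 or more and a median of 1.49. Mx1 and Mx2, GTPases that block viruses, had 48.3 against 7.12 and 83.3 against 28.1 RPKM. Ifitm1, of the interferon-induced membrane proteins, had 23.5 against 1.50. Sensors of foreign RNA were included, Ddx58 at 1.66, Ifih1 at 1.16 and Dhx58 at 1.85, as was the DNA sensor Zbp1 at 1.62. The transcription factors of the pathway ran from Irf8 (2.06) and Irf7 (1.64) over Irf1 (1.39) to Irf9 (1.02) and Stat2 (0.97). Irf5 (0.81) and Cmpk2 (0.55) were low in the list. Isg20 at 0.52 and 0.53 RPKM was the one member below 0, at -0.01. The median of the list at 21 months was 0.94, and Gbp2 and Gbp5, interferon-induced GTPases, had 2.44 and 1.71 at 13 months beside 0.94 and 0.52 at 21 months. The summed level of the 43 genes measured was 836 RPKM ipsilaterally and 256 contralaterally at 13 months. At 21 months these sums were 1021 and 495, so both sides were above their 13 month level.

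Antigen is presented by class I molecules on most cells and by class II molecules on specialised ones. Class I genes had a median of 1.27, with 10 of 15 at 1 or more: B2m, the light chain of class I molecules, had 728 against 268 RPKM, the peptide transporter Tap1 7.63 against 2.43, and the immunoproteasome subunits Psmb9 and Psmb10 26.7 against 6.08 and 79.2 against 32.8. Class II genes had a median of 1.78, with 7 of 8 at 1 or more, and 7 further members were under the filter. Over all 15 the class II median was 0.74, and 2 of the 8 kept were under 1 RPKM on average in the other 3 libraries. The class II chain RT1-Da had 14.7 against 1.93 RPKM, the invariant chain Cd74 83.8 against 17.6, and Ifi30, a reductase that opens antigens in the lysosome, 122 against 13.5. RT1-A1 (1.57) and RT1-CE10 (1.49) stood for the class I heavy chains, RT1-Ba (1.94) and RT1-Db1 (1.56) for further class II chains. The loading factors Tapbpl (0.92) and Tapbp (0.73), the costimulator Cd86 (1.31) and the protease Ctss (287 against 171) were at the low ends. Class I and class II genes of the rat are members of families with like sequences, so the split of reads between them is uncertain. At 21 months the medians were 0.92 and 1.0.

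**Figure D3:**
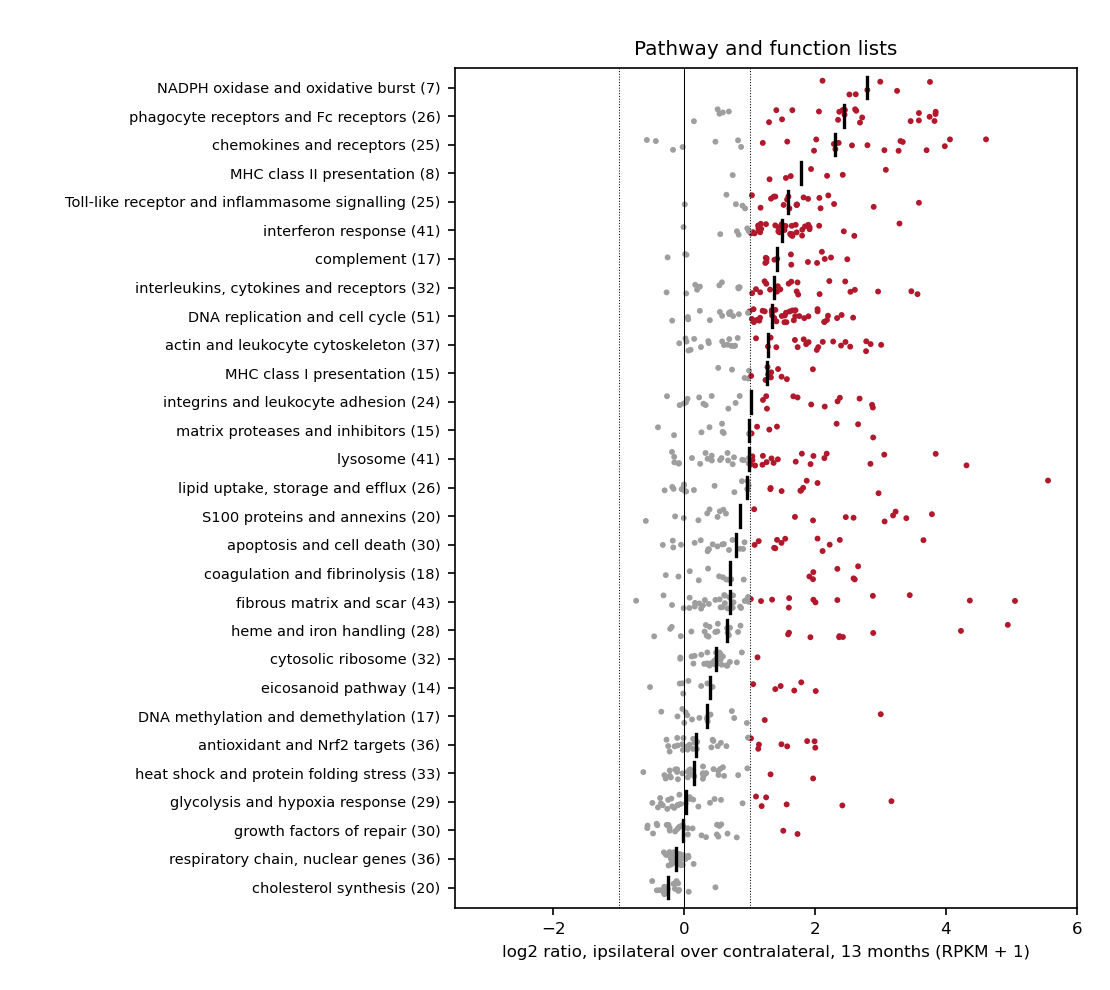
Each dot is a kept member of 1 of 29 pathway or function lists, with its log2 ratio at 13 months on the horizontal axis and the number of members in brackets. Black bars are list medians, red dots are at 1 or more, and vertical scatter within a row has no meaning. The medians run from 2.80 for the NADPH oxidase to -0.25 for cholesterol synthesis.

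Lysosomal genes had a median of 0.99, with 20 of 41 at 1 or more. Psap, which supplies activators of lipid breakdown, was the most abundant at 987.5 against 465 RPKM. The proteases followed: Ctsb at 736 against 186 RPKM, Ctsl at 403 against 88.1, Ctsd at 290 against 75.3, Ctsz at 193 against 25.9 and Ctsc at 23.4 against 1.93. Gpnmb had 445 against 21.4 and the progranulin gene Grn, a regulator of lysosomes, 130 against 28.7. Hexa, a hydrolase of glycolipids, was at 0.91. The proton pump of the organelle did not follow, as Atp6v1a (-0.19), Atp6v0d1 (-0.15) and Atp6v1b2 (-0.15) were below 0. Neurons also use this pump to fill synaptic vesicles.

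Genes of lipid uptake, storage and efflux had a median of 0.97, with 10 of 26 at 1 or more. Plin2, which coats lipid droplets, had 65.8 against 7.51 RPKM and the lipid chaperone Fabp5 286 against 77.3. Of the genes of cholesterol export, the regulator Nr1h3 (2.04) and the transporter Abca1 (1.79) were higher in RNA. Ch25h (1.78) and Soat1 (1.49), whose products make 25-hydroxycholesterol and cholesterol esters, were higher too. The uptake receptors Vldlr (-0.18) and Lrp1 (0.15) lay near 0, as did Lpl (-0.16), and Fabp3, the fatty acid carrier of neurons and muscle, was lowest at -0.30. The genes of cholesterol synthesis were on the other side: 18 of 20 were below 0, none reached 0.5 in either direction, and the median was -0.25. Hmgcs1, an early enzyme of the pathway, was at 79.7 against 98.4 RPKM, while Ebp at 12.2 against 8.44 was the highest. Lss (0.07), Pmvk (-0.08) and Nsdhl (-0.09) followed it, and Fdft1 (-0.42) and the regulator Srebf2 (-0.37) were near the low end. That list had a median of 0.01 at 21 months.

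The eicosanoid list divided by enzyme. The leukotriene and thromboxane genes Alox5ap (1.39), Lta4h (1.06) and Tbxas1 (2.01), the phospholipase Pla2g4a (1.79) and the prostaglandin synthases Hpgds (1.68) and Ptges (1.48) were at 1 or more, 6 of 14 in all. The inducible cyclooxygenase Ptgs2 was at 6.66 against 6.8 RPKM and Ptges2 at -0.07. Ptgds, the prostaglandin D synthase of meninges and choroid plexus, was the lowest at 304 against 436.

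Heme and iron genes had a median of 0.66, with 9 of 28 at 1 or more. Of heme breakdown, Hmox1 had 169 against 4.51 RPKM, whereas the next enzymes Blvra and Blvrb were at 53.8 against 38.3 and 15.2 against 11.8. Hp, which binds free hemoglobin, had 8.25 against 0.79. Iron was represented by Lcn2, which binds bacterial iron carriers (723 against 37.6), the transferrin receptor Tfrc (80.9 against 14.8), the phagosomal metal exporter Slc11a1 (13.2 against 0.91) and the ferroxidase Cp (78.0 against 19.7). Tfrc stood out between the ages, with a log2 ratio of 2.37 at 13 and 0.68 at 21 months. Steap4, a metal reductase, was at 2.43. Heph, the membrane ferroxidase, was lowest at 2.51 against 3.82, above it Abcg2 (-0.21), which exports heme precursors, and the constitutive heme oxygenase Hmox2 (-0.19). Hemoglobin RNAs themselves were not higher on the bleeding side: Hba1 was at 14.8 against 16.2, Hba2 at 29.3 against 34.7 and Hbb at 8.15 against 9.66 RPKM.

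Antioxidant genes, many of them targets of the factor Nrf2, had a median of 0.18 with 8 of 36 at 1 or more. The mitochondrial superoxide dismutase Sod2 had 152 against 50.3 RPKM, Gpx1, which reduces peroxides, 99.1 against 26.2, the metallothionein Mt2A 17.5 against 3.61, and Nfe2l2, the gene of Nrf2 itself, 45.6 against 15.6. Hmox1, also a target of Nrf2 and given with the heme genes, was at 4.95. Other known targets were closer to the median of the list, with Nqo1 at 0.56, Txnrd1 at 0.51, Gclm at 0.20, Srxn1 at -0.11 and Gclc at -0.02. Mgst1, a membrane glutathione transferase, was at 1.99, while Sod3 (-0.27), Sqstm1 (-0.24) and Gstm1 (-0.22) were the lowest. Cytosolic Sod1 was at 316 against 304 RPKM. Heat shock and protein folding genes had a median of 0.16, and 2 of 33 were at 1 or more, Hspb1 (43.7 against 10.4), a small heat shock protein that reactive astrocytes make, and Sdf2l1 (20.7 against 7.70) of the endoplasmic reticulum. Other chaperones of that compartment, Pdia4 (0.83), Hspa5 (0.55), Calr (0.52) and Hsp90b1 (0.45), were higher by less, with Creld2 at 0.97. Chac1 (-0.62), Asns (-0.30) and Hsph1 (-0.28) were the lowest, and the stress factors Atf4 (-0.11) and Ddit3 (0.10) lay near 0.

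Cell death genes had a median of 0.80, with 12 of 30 at 1 or more. Bcl2a1, a survival protein of myeloid cells, had 50.8 against 3.1 RPKM and the inhibitor Birc3 11.2 against 1.35. The kinase Ripk3 (9.19 against 1.18) and the pore former Mlkl (5.59 against 0.52) of necroptosis were higher, as was Casp8 (5.15 against 1.37), which restrains them. The mitochondrial arm lay lower, with Bax at 0.36, Apaf1 at 0.44, Bcl2l1 at -0.05 and Casp9 at -0.17. Gsdme was the lowest at 3.51 against 4.65, and Perp was at -0.17.

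The DNA replication and cell cycle list had 38 of 51 members at 1 or more and a median of 1.35. Over all 62 measured the median was 1.21, and 5 of the 51 kept had a mean under 1 RPKM over the other 3 libraries. The replication helicase subunits Mcm3 and Mcm6 had 12.3 against 2.01 and 14.6 against 3.79 RPKM. Mki67, the usual marker of dividing cells, had 9.67 against 1.11, Top2a 15.2 against 1.70 and the mitotic kinase Cdk1 8.71 against 0.83, and Ndc80 of the kinetochore was at 2.20. Of the cyclins, the mitotic Ccnb1 was at 1.61 and Ccnd1 at 1.12, whereas Ccnd2 (-0.18), Ccne1 (0.06) and Ccnd3 (0.06) did not differ by much. All values were modest in level, since Pcna at 77.9 against 39.1 was the one member above 30 RPKM ipsilaterally. Which cells divided cannot be read from bulk tissue.

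Matrix and scar genes had a median of 0.69, with 12 of 43 at 1 or more, and the leaders were glycoproteins rather than collagens. Over all 53 measured the median was 0.61, and 2 of the 43 kept had a mean under 1 RPKM over the other 3 libraries. Spp1 (osteopontin) had 901 against 26.1 RPKM, Tgfbi 47.9 against 3.48, the hyaluronan receptor Cd44 27.9 against 2.91 and the proteoglycan Vcan 12.1 against 2.26. Among collagens, Col3a1 (1.6) and Col4a1 (1.18) were above 1, Col1a1 was at 0.95, and the absolute levels were low, 9.22 against 2.37 RPKM for Col3a1 and 3.14 against 1.15 for Col1a1. Bcan, a proteoglycan of the nets around neurons, was the lowest at 24.8 against 41.8, and Sparc, an astrocyte and vessel protein, was at 273 against 340, with Ccn2 at -0.18. The proteases and inhibitors that remodel matrix had a median of 0.99 over 15 genes, 7 of them at 1 or more. That median was 0.60 over all 24 measured and 0.59 when at least 1 RPKM was asked for contralaterally. Of the 15 kept, 2 had a mean under 1 RPKM over the other 3 libraries. Mmp14, a membrane-bound metalloprotease, had 32.4 against 3.51 RPKM, Adam8 of leukocytes 5.49 against 0.29, Mmp9 2.31 against 0.62 and Mmp2 2.69 against 1.82. Adam17, which sheds cytokines and receptors, was at 1.42, and Mmp24 (-0.40), Reck (-0.15) and Adamts4 (0.27) were the lowest.

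Adhesion molecules of leukocytes had a median of 1.03, with 12 of 24 at 1 or more. That median was 0.79 over all 31 measured and 0.73 when at least 1 RPKM was asked for contralaterally. Of the 24 kept, 3 had a mean under 1 RPKM over the other 3 libraries. The beta 2 integrin chain Itgb2 had 31.7 against 4.10 RPKM, its partners Itgal and Itgam 13.1 against 1.71 and 15.2 against 2.64, and Fermt3, which activates integrins in blood cells, 13.0 against 1.75. Cd53, a leukocyte tetraspanin, was at 2.87, and the integrin chains Itga3 (-0.26), Itga8 (-0.07) and Itgb8 (-0.00) were the lowest. On the vessel side Icam1 was at 14.2 against 2.96, Vcam1 at 20.1 against 11.2, Sele at 2.39 against 0.47 and Icam2 at 6.07 against 4.76. The actin cytoskeleton list had a median of 1.28, with 20 of 37 at 1 or more. Its leukocyte genes led, among them the capping protein Capg (40.0 against 4.09), plastin Lcp1 (70.1 against 9.33), the myosin Myo1f (31.5 against 3.5) and the exchange factor Vav1 (28.1 against 3.23). The intermediate filament gene Vim had 571 against 107 and Actb 1141 against 532. Tpm1 (-0.07), Actn1 (0.02) and Myo5a (0.04), also of neurons and muscle, did not differ by much.

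S100 proteins and annexins, with a median of 0.86 and 10 of 20 at 1 or more, covered both ends. S100a11 had 45.2 against 2.35 RPKM, Anxa1, an anti-inflammatory annexin, 85.6 against 8.21, and the neutrophil and monocyte pair S100a9 and S100a8 31.7 against 2.11 and 19.4 against 1.23. S100b, the astrocyte member, was the lowest at 336 against 505, below Anxa8 (-0.14) and S100a1 (-0.00). That pair was also unlike between the ages, at 3.40 and 3.19 for 13 months and 1.64 and 1.88 for 21 months, for S100a9 and S100a8 in turn.

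Growth factors of repair had a median of -0.02 and 2 of 30 at 1 or more, Tgfb1 and the injury-induced factor Atf3 (4.69 against 0.99 RPKM). The vessel growth factor Vegfa was at 19.7 against 23.5 and the neurotrophin Bdnf at 1.96 against 3.36. Pgf (0.80) and Igf1 (0.66) followed the leaders, and Igf2 (-0.56) and Igfbp4 (-0.47) were low with Bdnf. Gap43, a growth cone protein, was at 152 against 202. Glycolysis and hypoxia genes had a median of 0.02 with 6 of 29 at 1 or more, and the split followed the isoform. The hexokinase of leukocytes Hk3 had 10.3 against 0.26 RPKM, Hk2 10.2 against 2.77 and the brain isoform Hk1 80.2 against 101. Likewise the lactate exporters Slc16a3 (7.18 against 0.53) and Slc16a1 (32.6 against 13.1) were higher, Ldha was at 14.9 against 9.76, and Ldhb at 316 against 418. The phosphofructokinases Pfkp (-0.36) and Pfkm (-0.37) and the astrocyte aldolase Aldoc (-0.48) were among the lowest. With the median of the list so near 0, its sign changed when the libraries were rescaled.

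Energy genes of the mitochondrion were lower by small amounts. All 13 mitochondrially encoded genes were below 0, from -0.44 (Mt-atp6, 7953 against 10761 RPKM) to -0.19 (Mt-nd6), with a median of -0.37. At 21 months 4 of them were above 0. Nuclear genes of the respiratory chain had a median of -0.13, with 32 of 36 below 0 and none past 0.5. Ndufa8 was the lowest at 124 against 154 RPKM and Sdhd the highest at 67.1 against 60.6, with Ndufv2 (-0.28) and Cyc1 (-0.26) near the low end and Ndufb5 (0.07), Sdhb (0.06) and Sdhc (0.02) as the others above 0. Cytosolic ribosomal protein genes had a median of 0.49, with 1 of 32 at 1 or more, Rplp0 at 221 against 101 RPKM, and 12 at 0.5 or more. Many ribosomal protein genes have near-identical copies, so single values are uncertain. Rpsa (0.88) was high, Rps20 (-0.06) and Rps27a (0.11) low, and Rpl37 was at 0.81 at 13 months and at -2.35 at 21 months.

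Enzymes that place, remove or read DNA methylation had a median of 0.35, with 2 of 17 at 1 or more. Apobec1, a cytidine deaminase best known for editing RNA, had 48.0 against 5.11 RPKM, and Uhrf1, which guides methylation at replication forks, 3.44 against 0.89. The methyltransferases Dnmt1 and Dnmt3a were both at 0.36, and Tet2 and Tet3, which oxidise the mark, were at 0.02 and 0.12. Gadd45a (0.96) and Gadd45b (0.77), stress genes linked to demethylation, came next to the leaders, and Zbtb4 (-0.35), Mbd3 (-0.10) and Uhrf2 (-0.03) were the lowest.

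Neuronal genes were lower together and by little. All 19 general neuron genes were below 0, at a median of -0.41 and between -0.34 and -0.63. Rbfox3, the gene of the nuclear marker NeuN, was at 83.2 against 108 RPKM, Map2 of dendrites at 47.6 against 61.3, the neurofilament gene Nefl at 161 against 223, and Snap25 at 298 against 460. Nefh (-0.58) and Camk2b (-0.56) were near the low end, Elavl4 (-0.34), Elavl3 (-0.35) and Stmn2 (-0.36) at the high one. Of the synaptic vesicle genes 27 of 28 were below 0, with a median of -0.47: Syp was at 226 against 307 RPKM, Rab3a at 194 against 302 and Rab3c at 10.4 against 17.7. Syn3 (0.03), Sv2c (-0.25), Rab3b (-0.29) and Syt4 (-0.31) were the highest of that list, and no member of either list was at -1 or less.

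Transmitter genes showed the same size. All 28 glutamatergic genes were below 0, with a median of -0.37, as were 26 of 27 GABAergic ones, with a median of -0.39. The vesicular glutamate transporters Slc17a7 of cortex and Slc17a6 of thalamus were at 101 against 140 and 8.06 against 14.2 RPKM. Neurod6, a factor of cortical and hippocampal pyramidal cells, was at 21.7 against 43.2, the lowest of the list. Grm7 was at -0.55, and Rorb and Foxp2 (both -0.17) and Grik3 and Grin2a (both -0.19) were closest to 0. Of the inhibitory genes, the synthesis enzymes Gad1 and Gad2 were both at -0.42, the interneuron genes Pvalb at 48.0 against 66.4, Sst at 36.7 against 44.4 and Calb2 at 21.0 against 36.3, and the receptor subunit Gabra5 at 15.6 against 26.6. Dlx2 (0.03), Dlx5 (-0.10), Gabrd (-0.14) and Dlx1 (-0.18) were the highest. Genes of monoamine and acetylcholine neurons had a median of -0.50 over 9 members, 6 of them below 0 and 1 at 1 or more. Their summed level was higher ipsilaterally (125 against 97.7 RPKM), and the median was 0.13 when a mean of at least 5 RPKM was asked for. Slc6a3, the dopamine transporter, was at 0.38 against 1.23 RPKM and Ache at 5.01 against 8.08, while the degrading enzymes Maoa (0.22) and Maob (0.05), also of glia, and Slc5a7 (-0.25) were among the highest.

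Genes of striatal projection neurons were the lowest of the neuronal groups. All 20 were below 0, 13 of them at -0.5 or less, with a median of -0.57. Drd2, the dopamine receptor of the indirect pathway, was at 2.35 against 5.31 RPKM, Rgs9 at 9.11 against 17.5, Gng7 at 10.5 against 19.2 and Ppp1r1b, the gene of DARPP-32, at 81.7 against 134. Penk was at 133 against 198 and Tac1 at 8.31 against 13.5, so genes of both output pathways were lower. The receptor genes Drd1 (-0.21) and the factor genes Isl1 (-0.09) and Foxp1 (-0.03) lay closest to 0, then Ppp1r16b (-0.26). At 21 months the median of the list was -0.17, with Drd2 at 0.02. That difference between the ages was not tested.

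Channel genes had a median of -0.38, and 36 of 41 were below 0. Scn3b, an accessory subunit of sodium channels, was at 36.2 against 57.4 RPKM, and the pacemaker channel Hcn2 at 17.1 against 26.0. The 3 members at 1 or more are channels of leukocytes: the potassium channel Kcnn4 at 8.15 against 0.61, the oxidant-gated Trpm2 at 12.4 against 4.51 and Trpv2 at 10.6 against 4.25. Trpc6 (0.45) came next. Astrocytic Kcnj10, which clears potassium, was at 8.27 against 12.3.

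Immediate early genes, which neurons switch on with activity and other cells with injury, went both ways. Of 25, 12 were at -0.5 or less, 3 at 1 or more, and the median was -0.48. The activity genes Arc (14.8 against 32.2 RPKM), Egr1 (24 against 45.2), Nr4a1 (4.91 against 10.4), Egr4 (1.21 against 2.94) and Npas4 (1.09 against 2.62) were the lower ones. Fos was at 22.2 against 27.0 and Jun at 45.2 against 38.2. Atf3 (1.52), Ier3 (1.38) and Myc (1.33) were the higher ones, then Dusp6 (0.59). At 21 months the median was -0.10, and Egr1 was at 33.0 against 34.7 RPKM.

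The 8 genes at or below -1 were of several kinds. Tph1 (0.27 against 10.4 RPKM), the tryptophan hydroxylase of the pineal gland, and the phototransduction genes Gngt1 (0.03 against 6.05) and Pde6g (0.86 against 11) were high in the contralateral library at 13 months alone, and were at most 1.27 RPKM in the other libraries. Other members of the same list of 30 pineal and photoreceptor genes were highest there too: Pdc at 1.57 RPKM against at most 0.08, Pde6c at 0.87 against at most 0.06 and Aipl1 at 0.74 against at most 0.10. Of the list, 9 genes reached 1 RPKM in that library and 4 to 6 in the others. The melatonin enzyme genes were at or near 0 there, Aanat at 0.01 and Asmt at 0.28. The summed level of the list was 53.5 RPKM in that library, 49.4 in the ipsilateral one, and 42 and 18.9 in the ipsilateral and contralateral ones at 21 months. Gngt2, a gene of the list that was 32 against 3.23, made up most of the ipsilateral sum, and Rom1 (0.15), Unc119 (0.07) and Neurod1 (-0.43) differed by less. The part of these RNAs in the result was not tested. Without the list, 873 genes were higher and 5 lower.

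The 5 other lower genes were brain genes. Shox2, a factor of thalamic and other neurons, was at 7.72 against 19.1 RPKM at 13 months and at 11.1 against 21.8 at 21 months, the one of the 5 with a log2 ratio under -0.5 at both ages. Arc had -1.07 and -0.40 at 13 and 21 months. Th, the rate-limiting enzyme of dopamine synthesis, was at 1.27 against 3.63 and later at 3.57 against 4.77. The splicing factor gene Qk of glia was at 0.90 against 3.24 and later at 2.84 against 2.64. Cabp7, a neuronal calcium-binding protein, was at 3.21 against 7.42 and later at 6.73 against 6.07. In Qk, Th and Cabp7 the ipsilateral library at 13 months was the low one of 4. Among the genes just short of -1 were Trnp1 and C1ql2 (both -0.99), Neurod6 and Lrrc10b (both -0.96), Nr4a1 and Fibcd1 (both -0.95), Drd2, Cbs and Gng13 (each -0.91), and Hpca (-0.88). At 21 months they lay between -0.09 (Neurod6) and 0.48 (C1ql2).

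Thalamic and midline genes had a median of -0.37, with Tcf7l2 at 5.54 against 10.4 RPKM and Tnnt1 at 20.4 against 14.3 as the highest, then Prkcd (0.06), Zic4 (-0.19) and Plekhg1 (-0.27). Choroid plexus genes had a median of -0.38, with 10 of 15 below 0, and Ttr, its thyroid hormone carrier, was at 656 against 1200.3 RPKM and at 1049 against 1767 at 21 months. Car12 (-0.66) and Clic6 (-0.65) came next, and Igfbp2 (0.50), F5 (0.37), Col8a1 (0.23) and Aqp1 (0.21) were the highest. Ependymal cilia genes had a median of -0.10, with none of 12 past 0.5, from Cfap126 (-0.38), Ak7 (-0.31) and Dnai1 (-0.17) up to Tekt1 (-0.06), Rsph1 (0.01), Tekt4 (0.10) and Mlf1 (0.23). Erythroid genes had 1 of 6 at 1 or more, Tfrc, then Slc25a37 (0.86), and Ank1 of the red cell skeleton was the lowest at -0.65. How much of these differences follows from where each side was cut was not tested.

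**Figure D4:**
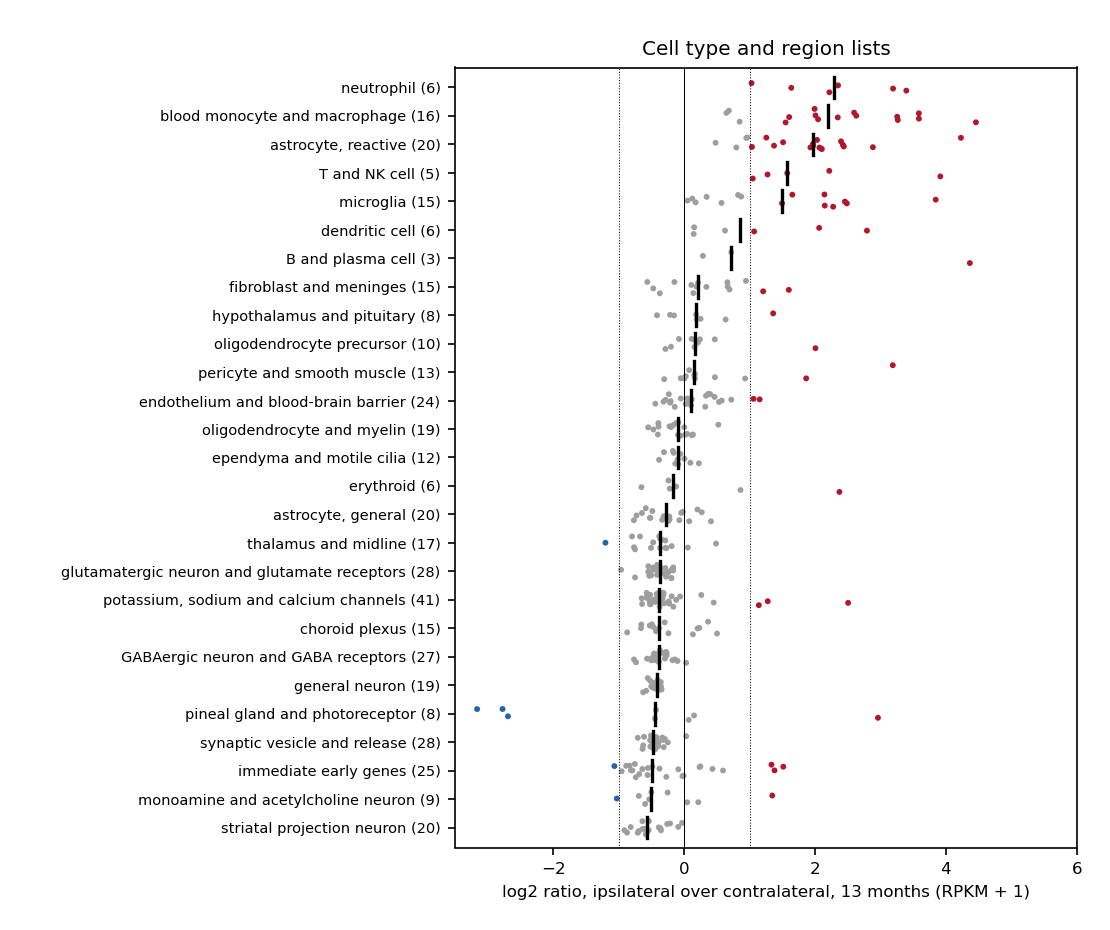
Each dot is a kept member of 1 of 27 cell type or region lists, with its log2 ratio at 13 months on the horizontal axis and the number of members in brackets. Black bars are list medians, red dots are at 1 or more and blue dots at -1 or less. The monocyte and macrophage and the reactive astrocyte lists have medians of 2.20 and 1.97, the neutrophil median of 2.29 covers 6 of 18 measured genes, neuronal lists lie between -0.57 and -0.37, and blue dots occur in 4 lists: pineal gland, thalamus, immediate early genes and monoamine neurons.

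The list of microglial markers had a median of 1.50, with 8 of 15 at 1 or more, 11 at 0.5 or more and none below 0. Aif1 (92.1 against 18.2 RPKM), Ptprc (22.8 against 3.24) and Cd68 (35.8 against 1.56) are shared with blood macrophages. Csf1r, the receptor both depend on, had 49.3 against 16.8. The 4 members under 0.5, picked here for that, were Tmem119 at 6.06 against 5.25, Sall1 at 5.88 against 5.31, Selplg at 9.29 against 8.92 and Olfml3 at 4.32 against 3.19. Further members of the list had larger ratios than these, the fractalkine receptor Cx3cr1 at 10.1 against 5.28, the fructose transporter Slc2a5 at 3.87 against 1.66 and the nucleotide receptor P2ry6 at 12.5 against 2.06.

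Genes of blood monocytes and macrophages had a median of 2.20, with 13 of 16 at 1 or more. Over all 18 measured the median was 2.03, and 2 of the 16 kept had a mean under 1 RPKM over the other 3 libraries. The summed level of the 18 was 922 RPKM ipsilaterally and 94.2 contralaterally. Lyz2, lysozyme, at 548 against 56.1 RPKM, made up most of both sums. The galectin Lgals3 had 164 against 6.48 and the mannose receptor Mrc1 14.4 against 1.48. Which cells made these RNAs cannot be read from bulk tissue. Msr1, a scavenger receptor, had 19.6 against 0.71, and Itga4 (0.85) and F13a1 (0.65) were low in the list. Arg1, an arginine-degrading enzyme of repair-type macrophages, had 41 against 3.39. Mrc1 and Cd163 (2.02 against 0.88), which also mark macrophages at the borders of the brain, had unlike ratios of 2.63 and 0.68.

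Other leukocytes were near the limit of the table. Of the 18 neutrophil genes measured, 6 were kept, Trem1 (2.35) among them, each at 1 or more, with summed levels of 73.1 and 6.71 RPKM for the whole list. Their median was 2.29, and 0.25 over all 18. The granule genes that define neutrophils were nearly absent, Mpo at 0.04 and Camp at 0.42 RPKM ipsilaterally, with Ltf listed at 0, and Cxcr2 was at 0.38. Of the 26 T and NK cell genes measured, 5 were kept, Cd8a, Cd2 (2.22), Ccl5 (1.58), Cd4 and Lck (1.05). The median was 1.58 over these and 0.51 over all 26. The T cell receptor parts Cd3d (1.6 against 0.32), Cd3e (1.11 against 0.28) and Cd3g (1.47 against 0.05) and the second CD8 chain Cd8b (2.45 against 0.01) were under the filter, while Cd8a at 21.8 and Cd4 at 14.5 RPKM ipsilaterally, both carried by rat macrophages as well, were far above them. B cell genes had low levels, with Cd79a at 0.72 and Ms4a1 at 0.91 RPKM ipsilaterally, and Jchain of plasma cells was at 2.51 against 1.13. The other kept members of that list, Sdc1 (4.37) and Xbp1 (0.29), are made by other cells too. Dendritic cell genes had 3 of 6 at 1 or more, led by Batf at 11.1 against 0.74, then Irf8 and Clec10a (1.07), ahead of Batf3 (0.63), Fscn1 and Flt3 (both 0.15), and the defining Clec9a and Xcr1 were at 0.51 and 0.03. Members that passed the filter through the ipsilateral library alone had to be higher, so these counts describe the lists and support nothing.

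Astrocytes showed opposite directions in their reactive and general genes. Of 20 reactive astrocyte genes kept, 16 were at 1 or more, with a median of 1.97 and none below 0. Over all 25 measured the median was 1.51, and 3 of the 20 had a mean under 1 RPKM over the other 3 libraries. Gfap had 1151 against 443 RPKM, Serping1 75.7 against 17.8, Ggta1 23.9 against 4.83 and Emp1 10.3 against 1.70. Steap4 was at 2.43, and Fbln5 (0.48), Tm4sf1 (0.80) and Aspg (0.95) were the lowest. Several of the list, Lcn2, Vim, Cd44 and C3 among them, are also made by leukocytes. The general genes had a median of -0.27, with 16 of 20 below 0. The gap junction gene Gjb6 was at 17.4 against 29.4 and the GABA transporter Slc6a11 at 7.44 against 13.4. The water channel Aqp4 (120 against 99.4) and Glul, glutamine synthetase (636 against 478), were above 0, as were Gja1 (0.20) and Sox9 (0.08).

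Oligodendrocyte genes had a median of -0.09 and none of 19 past 1. The late myelin genes Mbp (697 against 966 RPKM), Mobp (76.3 against 112) and Mal (109 against 144) were the lowest, and Aspa (13.0 against 8.72) and Cldn11 (120 against 109) the highest, then Olig2 (0.12) and Myrf (0.05). At 21 months Mbp and Mobp were at 0.16 and 0.20. Precursor genes had a median of 0.16, with Pdgfra at 9.76 against 8.28 and Cspg4 at 1.75 against 1.45. Tmem100 (0.47) and Sox6 (0.24) were above them, and Sox8 (-0.29), Enpp6 (-0.20) and Bmp4 (-0.08) the lowest. Vcan, at 2.01, was the one precursor gene past 1, and monocytes make it too.

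Vessel genes had list medians near 0. Endothelial genes had a median of 0.11, with 2 of 24 at 1 or more: Eng, a receptor of the transforming growth factor family that macrophages also carry, at 12.2 against 4.92 RPKM, and Tie1 at 7.24 against 2.95. Vwf (0.72) and Cdh5 (0.57) followed, and Lef1 was at -0.29. Those of the blood-brain barrier, Slc2a1 (0.47), Ocln (0.33), Abcb1a (0.32), Mfsd2a (-0.32) and Slco1c1 (-0.44), lay on both sides of 0. Pericyte genes had a median of 0.15. Anpep (14.9 against 0.74) was the highest of them and is a protein of myeloid cells as well, then the muscle genes Tagln (114 against 30.7), Des (0.93) and Kcnj8 (0.47), while Pdgfrb (2.82 against 2.62) and Rgs5 (15.9 against 16.5) were nearly equal, with Myh11 at -0.01 and Zic1 at -0.30. Fibroblast and meningeal genes had a median of 0.21, led by Col3a1 and by Mgp, a calcification inhibitor, at 77.2 against 32.9, with Lum at 0.69 and with Igf2 (-0.56), Slc13a4 (-0.47) and Slc22a6 (-0.37) as the lowest.

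Of the 874 higher genes, 516 were in none of the 56 lists. Genes named in this paragraph were chosen after their values were seen. Many belong to signalling downstream of immune receptors: the Src-family kinases Fgr (13.5 against 1.38 RPKM) and Lyn (43.7 against 8.28), the kinases Syk (9.92 against 1.59) and Btk (6.12 against 0.87), the adaptor Lcp2 (19.4 against 3.13) and the phosphatase Ptpn6 (72.9 against 11), which opposes them. Transcription factors that form myeloid cells were among them, Spi1, the gene of PU.1, at 46.4 against 7.48, Cebpb at 55.6 against 10.9 and Cebpa at 7.83 against 2.07. Irg1, whose product makes itaconate in activated macrophages, had 17.4 against 0.46. Further lysosomal enzymes were high, Lgmn, an asparagine-specific protease, at 331 against 61.2, and the nucleases Dnase2 at 77.0 against 14.9 and Rnaset2 at 83.9 against 17.0. The imaging target Tspo had 8.45 against 1.24, Chi3l1, a secreted protein of astrocytes and macrophages, 275 against 63.8, and the chromatin regulators Ezh2 and Rest were at 1.36 and 1.07.

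Set beside the 21 month pair, which shares no library with the 13 month pair, the higher genes had values of the same sign in all but 4. Of the 874, 818 (93.6%) had a log2 ratio of at least 0.5 at 21 months and 578 (66.1%) of at least 1, beside 16.3% and 5.61% of all genes kept. Their median was 1.53 at 13 and 1.22 at 21 months, and 728 had the smaller value at 21 months, which is the direction that choosing them on the 13 month value favours. Of the 497 at -0.5 or less, 30 (6.04%) were at -0.5 or less at 21 months, beside 2.94% of all genes kept, and 213 (42.9%) were above 0, beside 60.8% of all genes kept, with a median of -0.06 against -0.57. With 1 library a group, whether this is age, the cut of the tissue or the pool of animals cannot be told apart.

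**Figure D5:**
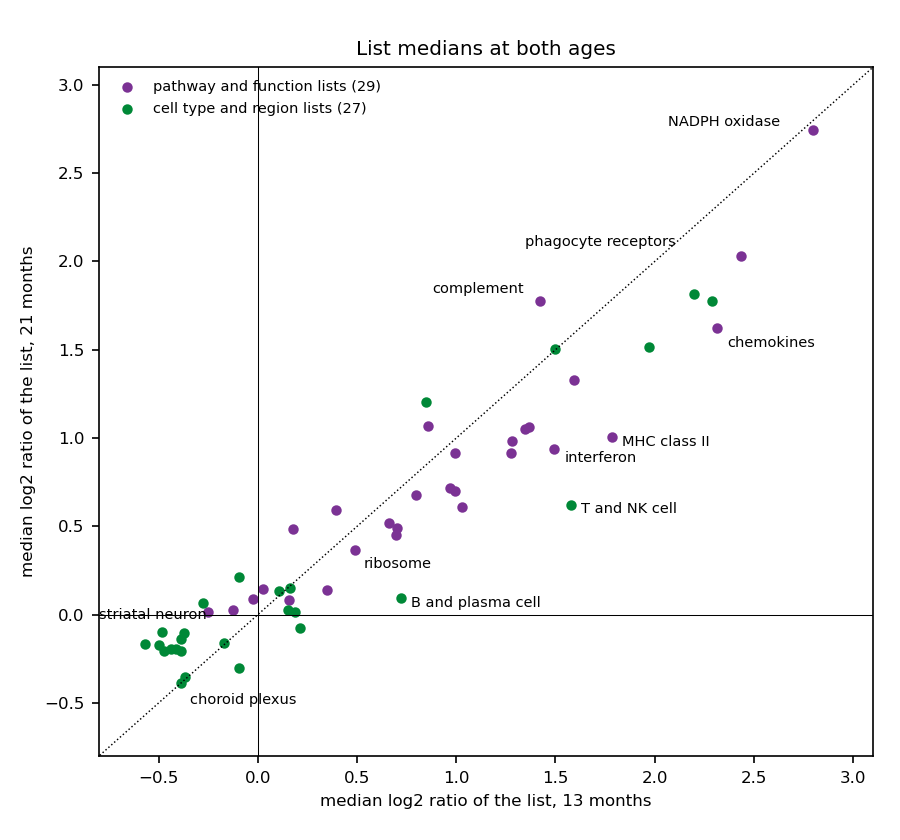
Each point is 1 of the 56 gene lists, with its median log2 ratio at 13 months on the horizontal and at 21 months on the vertical axis, and the dotted line marks equal values. The NADPH oxidase lies at 2.80 and 2.74, complement at 1.42 and 1.78 above the line, MHC class II at 1.78 and 1.0 below it, and the striatal list at -0.57 and -0.17.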

How the data were processed

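The labels give ipsilateral and contralateral brain of rats aged 13 and 21 months, 1 library each. Per the labels' protocols, RNA of several brains was pooled in equal amounts (whether per library is not stated) and polyadenylated RNA went into directional libraries. The submitters' processing notes name cutadapt, TopHat2, edgeR and GRCh38, a human build, while the identifiers are those of rat Ensembl genes, so the build is not settled. The authors deposited RPKM values with 2 decimals. How reads were counted, the gene models and the depth have no statement in the labels or header.

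From these values, log2 ratios with 1 RPKM added were computed in Python 3.11.15 with pandas 2.3.3 for genes averaging 1 RPKM or more. Figures used matplotlib 3.10.9. No test was possible with 1 library a group. The computation was tested on simulated data. Members, the 56 gene lists and the promoter motifs were chosen with earlier results of these data known. Of 1581 list entries 1470 matched a symbol and 9 an older name, and 100 were not used here. Named were the 30 highest and 20 lowest genes, the 15 highest and lowest among genes at 10 RPKM or more contralaterally, the 10 largest RPKM differences each way, and of each list the 4 highest, the 3 lowest and members with a role to explain, placeholder names left out. Some genes the rule picks are not reported here. Alternatives were another pseudocount, filter, scaling and contralateral library.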

Additional observations from a re-analysis of the deposited data

Results flagged for a closer look

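Cga, the gene of the alpha chain that pituitary hormones share, was at 5.37 RPKM ipsilaterally and 1.48 contralaterally at 13 months, a log2 ratio of 1.36. At 21 months its log2 ratio was -1.85, so the sides lay in opposite directions at the 2 ages by at least 2-fold each, and it was the one kept gene that did so. The difference was not tested, since each group held 1 library. Of the 19 hypothalamic and pituitary genes measured, 8 were kept, with a median of 0.19, and the summed level of the 19 was 83.3 RPKM ipsilaterally and 73.6 contralaterally. Other pituitary genes were near 0 at 13 months, with Gh1 at 0.04 and 0.00 and Tshb at 0.19 and 0.11 RPKM, while Pomc was at 3.44 and 2.73. The hypothalamic genes Trh (0.63) and Avp (0.19) were the next highest and Crh (-0.41), Cartpt (-0.22) and Hcrt (-0.15) the lowest in log2 ratio. Their part in the result was not tested.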

How the results depend on the processing

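The 874 higher genes became 494 when a mean of at least 5 RPKM was asked for and 1852 at a log2 ratio of 0.5, and lay between 648 and 1101 under the other settings. The 8 lower genes became 34 with 0.1 RPKM added, 3 with a mean of at least 5 RPKM, 18 when the libraries were scaled without mitochondrial genes, 497 at a log2 ratio of 0.5, 5 without the pineal list and 20 against the 21 month contralateral library. The count of lower genes therefore depends on each of these choices. Of the 874 higher genes 785 also reached 1 against the 21 month contralateral library, a comparison that uses the same ipsilateral library. A log2 ratio of 0.5, the pineal list left out and the other contralateral library were chosen after seeing the data. Of 56 list medians, 4 changed sign under another pseudocount, filter or scaling (growth factors, glycolysis, monoamine neurons and pineal gland), 1 of them, glycolysis, under a scaling. Over these settings 367 of 392 recomputed list medians and 539 of 557 recomputed log2 ratios of named genes kept their sign and their side of a 2-fold difference, and none that was past 2-fold changed sign. Unknown depth limits single low values most. No paired analysis was possible because the 13 month comparison held 1 library a side. A fit of side over both ages would be another comparison and was not run.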
